A study of Mus musculus with 26 samples.

Results

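Expression of 9 genes of the muscle ubiquitin system was followed, namely the muscle RING finger genes Trim54, Trim55 and Trim63, the membrane repair gene Trim72, the F-box genes Fbxo32 and Fbxo40, and the ankyrin and SOCS box genes Asb2, Asb5 and Asb13. The 9 genes were chosen by symbol as muscle ubiquitin ligase components and are 9 of the 55341 genes listed for each library. RNA-Seq was performed on C2C12 cells, an established mouse myoblast line, either undifferentiated (0 h) or 24 h after transfer to low-serum differentiation medium. In the siRNA experiment (18 libraries), the cells were transfected with siCtrl, siSMYD3#1 or siSMYD3#2, with 3 libraries per treatment and time, of which 1 was extracted with TRIzol and 2 with the NucleoSpin kit. In the overexpression experiment (8 libraries, all TRIzol), cells carrying the empty retroviral vector pREV were compared with CL5, which carries pREV with tagged SMYD3, with 2 libraries per line and time. Both siRNAs target Smyd3, the gene of a lysine methyltransferase. CL5 is 1 clone, and the vector cells were sub-cloned as well, so that SMYD3 overexpression and differences between clones cannot be told apart.

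Ubiquitin ligases (E3) choose the proteins that are tagged with ubiquitin and degraded by the proteasome. The muscle RING finger proteins (MuRF1 from Trim63, MuRF2 from Trim55 and MuRF3 from Trim54) bind the sarcomere and microtubules, and MuRF1 together with atrogin-1, the product of Fbxo32, is a classic marker of muscle atrophy. F-box proteins work as substrate receptors of cullin 1 ligases, and ASB proteins as substrate receptors of cullin 5 ligases.

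Total counts lay between 14315193 and 60398170 in the siRNA libraries and between 21124675 and 67853386 in the overexpression libraries. The targeted gene, Smyd3, passed the threshold under some labels and not under others. At 24 h it was 20.7 CPM (CPM being the count scaled to the size of its library) in the TRIzol library and 17.8 and 19.9 CPM in the NucleoSpin libraries of siCtrl, and in the libraries labelled siSMYD3#1 it was 19.3, 15.2 and 15.1 CPM, a log2 fold change of -0.24 ± 0.16 (SE, edgeR adjusted p = 0.414). In the libraries labelled siSMYD3#2 it was 9.65, 5.46 and 5.37 CPM (log2 fold change -1.51 ± 0.17, edgeR adjusted p = 5.06e-05). In CL5 Smyd3 was 24.3 and 21 CPM against 17.1 and 18.2 CPM in vector cells at 24 h (log2 fold change 0.36 ± 0.27, adjusted p = 0.671). Directions given for the libraries labelled siSMYD3#1 and CL5 therefore rest on their labels and not on the Smyd3 transcript. The study checked tagged SMYD3 in its clones by western blot and immunofluorescence. In C2C12 cells given Smyd3 siRNAs it followed SMYD3 protein by western blot and Smyd3 mRNA by qPCR. It also followed tagged SMYD3 by western blot in CL5 given Smyd3 siRNAs. Summed markers of other cells gave 0 to 0.126 CPM for 4 adipocyte, 0.118 to 1.73 CPM for 4 osteoblast, 1.75 to 6.84 CPM for 4 immune and endothelial, and 4.05 to 35.7 CPM for 4 fibroblast genes over all libraries. The fibroblast sum moved with the groups, from 4.05 to 7.35 CPM at 0 h to 10.7 to 13.1 CPM at 24 h in siCtrl, and at 24 h it was 17.3 to 20.8 CPM in the libraries labelled siSMYD3#1, 8.31 to 11.2 CPM in those labelled siSMYD3#2, 34.8 to 35.7 CPM in vector cells and 21.8 to 22.2 CPM in CL5. Of these genes, Dpt, which encodes a matrix protein, rose over time in siCtrl (log2 fold change 2.55 ± 0.39, edgeR adjusted p = 5.7e-05) and was lower in CL5 than in vector cells at 24 h (-4.73 ± 0.34, adjusted p = 0.00103). The part of these markers in the results was not tested.

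The promoters of Trim54, Trim72 and Asb2, whose transcripts fell with both siRNAs, and that of Asb13, which was nearly uncounted in CL5, are printed from RefSeq (GRCm38.p6), 250 bases before to 50 bases after the start of transcription, 5′ to 3′ on the gene's strand. Capitals mark E-boxes (CANNTG, searched on both strands), the letters that MyoD and myogenin bind.
Trim54, chr5:31116362-31116661, plus strand: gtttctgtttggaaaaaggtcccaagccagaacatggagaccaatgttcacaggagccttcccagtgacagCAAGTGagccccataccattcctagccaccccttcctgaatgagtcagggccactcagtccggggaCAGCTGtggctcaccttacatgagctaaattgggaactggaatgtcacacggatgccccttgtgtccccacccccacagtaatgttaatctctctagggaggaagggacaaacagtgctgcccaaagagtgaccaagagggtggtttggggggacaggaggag
Trim72, chr7:128004128-128004427, plus strand: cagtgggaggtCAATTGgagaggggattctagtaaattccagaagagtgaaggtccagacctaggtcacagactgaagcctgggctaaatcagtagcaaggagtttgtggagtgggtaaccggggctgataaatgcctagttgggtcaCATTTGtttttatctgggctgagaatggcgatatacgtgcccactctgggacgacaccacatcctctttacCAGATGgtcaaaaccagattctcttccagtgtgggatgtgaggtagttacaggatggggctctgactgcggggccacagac
Asb2, internal start, chr12:103338341-103338640, minus strand: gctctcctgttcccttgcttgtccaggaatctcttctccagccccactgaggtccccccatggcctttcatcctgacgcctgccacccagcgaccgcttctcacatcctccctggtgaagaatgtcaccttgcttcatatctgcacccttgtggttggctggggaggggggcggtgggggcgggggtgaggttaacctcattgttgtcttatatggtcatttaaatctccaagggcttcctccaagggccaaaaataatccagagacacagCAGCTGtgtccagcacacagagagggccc
Asb2, outer start, chr12:103355952-103356251, minus strand: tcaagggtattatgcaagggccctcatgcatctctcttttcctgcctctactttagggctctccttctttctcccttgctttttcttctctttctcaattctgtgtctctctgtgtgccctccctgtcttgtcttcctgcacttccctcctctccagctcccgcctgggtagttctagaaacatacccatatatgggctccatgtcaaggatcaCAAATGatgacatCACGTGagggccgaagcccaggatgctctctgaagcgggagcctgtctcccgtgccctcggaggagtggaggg
Asb13, chr13:3633782-3634081, plus strand: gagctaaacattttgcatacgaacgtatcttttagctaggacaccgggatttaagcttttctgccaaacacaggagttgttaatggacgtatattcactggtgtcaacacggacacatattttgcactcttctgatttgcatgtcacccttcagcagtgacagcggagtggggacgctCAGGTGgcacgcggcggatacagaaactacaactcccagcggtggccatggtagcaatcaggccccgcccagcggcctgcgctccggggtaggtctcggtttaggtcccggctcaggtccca
Trim54 held 2 E-boxes, beginning 179 and 113 bases before the start, Trim72 held 3, and Asb13 held 1. The internal Asb2 promoter held 1 E-box, just inside the transcript, and the outer one held 2. At least 1 E-box was present in 72.3% of the 32851 promoters of that length, so its presence does not set these genes apart. The E-box CAGCTG, present in 16.3% of promoters, was found in Trim54 and the internal Asb2 promoter among those printed, and also in entries of Trim63, Fbxo40 and Asb5. The hexamer CCCTCC, searched on both strands, was in 39.2% of promoters and occurred 3 times in the outer Asb2 promoter and once in the internal one. GAGGGG, searched on both strands and able to overlap CCCTCC read from the other strand, was in 32.9% of promoters and occurred once in Trim72 and once in the internal Asb2 promoter, where it overlapped CCCTCC. RefSeq promoters were matched for 7 of the 9 genes, with 11 entries in all, and Trim55 and Fbxo32 had no entry. These matches describe letters in a window and not binding.

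In GRCm38, Trim54 (ENSMUSG00000062077) lies on chr5:31116712-31137630, Trim55 (ENSMUSG00000060913) on chr3:19644474-19692421, Trim63 (ENSMUSG00000028834) on chr4:134315120-134329629 and Trim72 (ENSMUSG00000042828) on chr7:128003949-128011033, all on the plus strand. Fbxo32 (ENSMUSG00000022358) lies on chr15:58175879-58214932, Fbxo40 (ENSMUSG00000047746) on chr16:36963460-36990467 and Asb2 (ENSMUSG00000021200) on chr12:103321142-103356001, all on the minus strand. Asb5 (ENSMUSG00000031519) lies on chr8:54529580-54587842 and Asb13 (ENSMUSG00000033781) on chr13:3634032-3653822, both on the plus strand.

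The 9 genes covered a wide range of levels. Per kb of exon, undifferentiated siCtrl cells held 61.6 ± 14 CPM of Asb5 (SD, n = 3), 4.04 ± 2.92 of Trim55, 1.59 ± 0.23 of Trim54 and 1.02 ± 0.538 of Asb13. Asb5 stood above all others in every library, whereas Trim55, Trim54 and Asb13 overlapped in their spread. Trim72 (0.0863 ± 0.0395 CPM per kb) and Asb2 (0.0967 ± 0.0214 CPM per kb) were barely counted at 0 h and did not differ beyond their spread. After 24 h in siCtrl the order was Asb5 (58 ± 14.1 CPM per kb), Trim55 (10.8 ± 4.09), Trim54 (4.71 ± 0.173), Trim72 (3.2 ± 2), Asb2 (1.46 ± 0.13), Asb13 (0.772 ± 0.519) and Trim63 (0.257 ± 0.162). Trim54 and Trim72 again did not differ beyond their spread, and neither did Trim72 and Asb2, Asb2 and Asb13, or Asb13 and Trim63. Of the 9 genes, 6 passed the filter on low counts in the siRNA experiment (Trim54, Trim55, Trim72, Asb2, Asb5 and Asb13) and 7 in the overexpression experiment, which added Trim63. Fbxo32 and Fbxo40 passed in neither. Counts out of the 9 genes given below therefore rest on 6 tested genes in the siRNA experiment and 7 in the overexpression experiment.

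**Figure D1:**
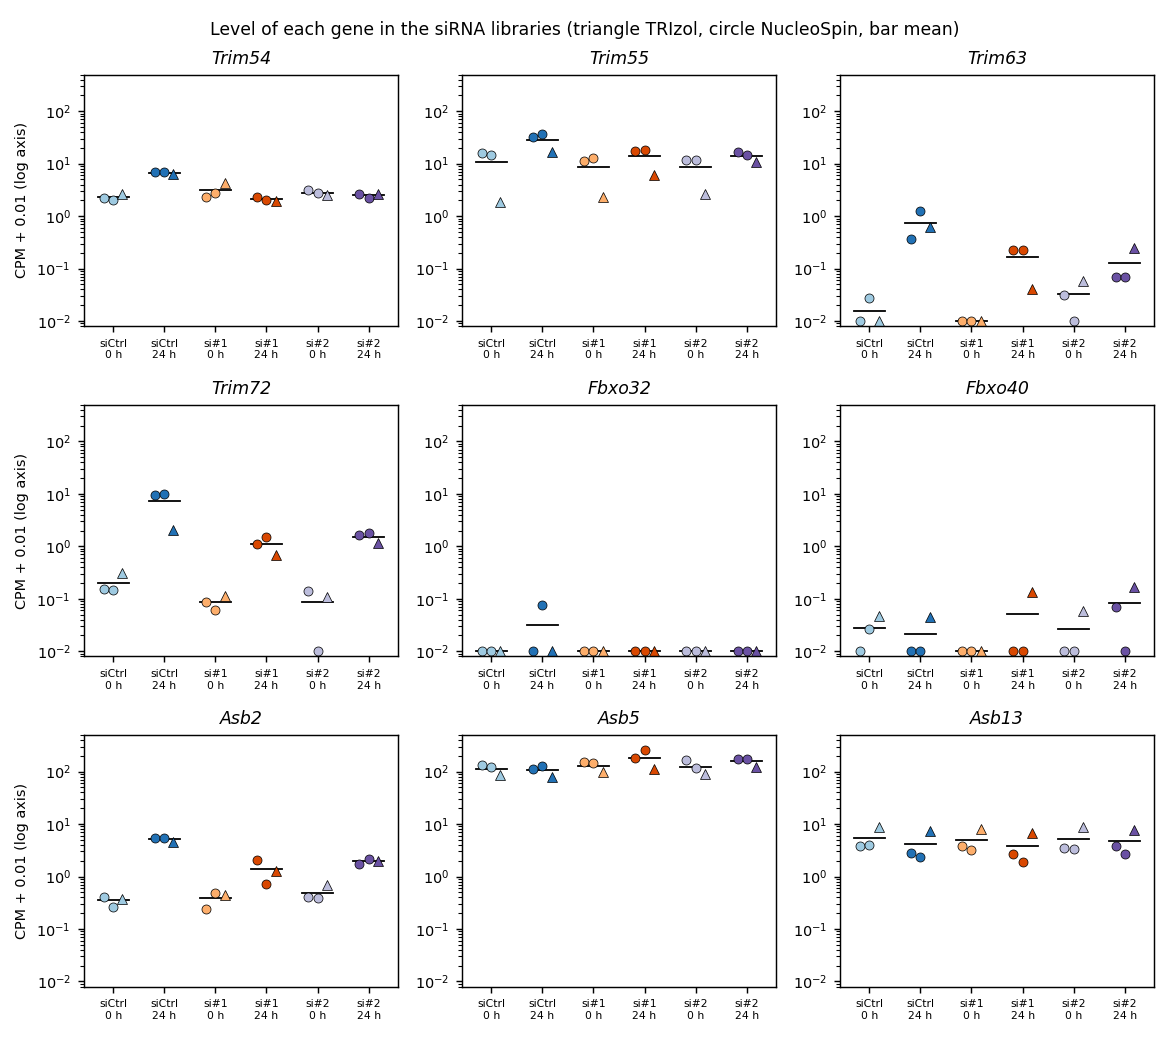
Level of each gene in each siRNA library, as CPM plus 0.01 on a log axis, with circles for NucleoSpin, triangles for TRIzol and a bar for the mean of 3 libraries (si#1 and si#2 are siSMYD3#1 and siSMYD3#2). Trim54, Trim72 and Asb2 are highest in all 3 siCtrl libraries at 24 h, and the TRIzol libraries lie apart for Trim55 and Asb13.

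The first comparison asked which of these genes move when control myoblasts differentiate. From 0 h to 24 h in siCtrl, 4 of the 9 genes, of which 6 were tested, rose and 0 fell. Among the 15820 genes tested, 29.4% had an edgeR adjusted p under 0.01 in either direction, 14.6% rising and 14.8% falling. The genes that rose were Trim54, Trim55, Trim72 and Asb2. Asb5 and Asb13 did not pass. Every library at 24 h lay above every library at 0 h for 4 of the 9 genes, and for 17.0% of all genes tested.

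Trim72, which encodes MG53, a TRIM protein of membrane resealing, held 0.295 CPM in the TRIzol and 0.146 and 0.137 CPM in the NucleoSpin siCtrl libraries at 0 h, and 2.01, 9.51 and 9.93 CPM at 24 h. Every 24 h library lay above every 0 h library, and the TRIzol library was the lowest at 24 h. The log2 fold change was 5.13 ± 0.51 (SE, edgeR adjusted p = 4.38e-07). The summed muscle differentiation markers also varied at 24 h, from 674 to 1990 CPM over the 3 libraries, and their part in the Trim72 level was not tested.

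Asb2, the receptor that directs filamins to degradation, held 0.368 CPM in the TRIzol and 0.402 and 0.257 CPM in the NucleoSpin siCtrl libraries at 0 h, and 4.64, 5.39 and 5.49 CPM at 24 h. The 3 libraries of each time lay close together and the times did not overlap. The log2 fold change was 3.95 ± 0.35 (edgeR adjusted p = 1.16e-07). Flna, the gene of its target filamin A, did not pass the threshold over the same time (log2 fold change -0.10 ± 0.08, edgeR adjusted p = 0.349). The ligases act on proteins, so the RNA of target genes here and below (Flna, Irs1, Snai2) does not measure degradation.

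The MuRF genes Trim54 and Trim55 rose by a similar factor. Trim54 went from 2.65, 2.16 and 2.02 CPM to 6.47, 6.88 and 6.92 CPM (TRIzol first), a log2 fold change of 1.58 ± 0.20 (edgeR adjusted p = 5.69e-06), with no overlap between times. Trim55 went from 1.84, 16 and 14.4 CPM to 16.5, 32.1 and 37.5 CPM, a log2 fold change of 1.67 ± 0.35 (edgeR adjusted p = 0.00162). The TRIzol library was the lowest of Trim55 at both times, and its 24 h value was close to the NucleoSpin values at 0 h. The Trim55 call was lost without the extraction method in the model (adjusted p = 0.214) and when only these 6 libraries were fitted (adjusted p = 0.0197). Trim63, the gene of MuRF1, was not tested because of its low counts. It had 0, 0 and 1 counts at 0 h and 17, 8 and 19 counts at 24 h in siCtrl, at least 8.06-fold higher when 3 counts are taken for each 0 h library.

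Asb5 held the most counts of the 9 genes, with 84.5, 134 and 122 CPM at 0 h and 78.2, 114 and 129 CPM at 24 h in siCtrl (TRIzol first), a log2 fold change of -0.09 ± 0.13 (edgeR adjusted p = 0.607). Asb13 held 8.87, 3.77 and 3.93 CPM at 0 h and 7.39, 2.76 and 2.35 CPM at 24 h (log2 fold change -0.46 ± 0.17, edgeR adjusted p = 0.0375). The times overlapped for both genes. Asb5 shares 75 of its 1843 exon bases with Spcs3 on the opposite strand, a gene with 113414 counts over the 26 libraries against 114691 for Asb5. The library kit was stranded, but the strand setting of the counting is not given in the sources used here. Trim54 and Trim72 also overlap antisense genes, which held 65 and 60 counts over all libraries against 3702 and 2363.

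The siRNA comparison asked whether these genes differ during early differentiation between cells given a Smyd3 siRNA and siCtrl. Smyd3 itself was lower in the libraries labelled siSMYD3#2 and did not pass the test in those labelled siSMYD3#1. At 24 h, 3 of the 9 genes (Trim54, Trim72 and Asb2) fell and 1 (Asb5) rose in the libraries labelled siSMYD3#1, where 5.85% of all genes tested passed, 2.94% lower and 2.91% higher. The same 3 genes fell and the same 1 rose in the libraries labelled siSMYD3#2, where 3.70% passed, 2.04% lower and 1.66% higher. Both comparisons share the siCtrl libraries. With each siRNA, all libraries lay below all siCtrl libraries for 3 of the 9 genes. Of all genes tested, 7.38% did so with siSMYD3#1 and 7.82% with siSMYD3#2. Without the extraction method in the model, Trim54 was the 1 gene of the 9 that passed with each siRNA. At 24 h the 2 siRNAs differed from each other in 0 of the 9 genes by edgeR, and in 0 by DESeq2, with 0 at an unadjusted p under 0.05, where 3.36% of the genes tested differed.

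Trim54 at 24 h held 1.9, 2.32 and 1.98 CPM in the libraries labelled siSMYD3#1 and 2.59, 2.61 and 2.25 CPM in those labelled siSMYD3#2 (TRIzol first), against 6.47, 6.88 and 6.92 CPM in siCtrl. All 6 libraries with a Smyd3 siRNA lay below all siCtrl libraries, and close to the 2.02 to 2.65 CPM of undifferentiated siCtrl cells. The log2 fold changes were -1.71 ± 0.21 (edgeR adjusted p = 2.8e-05) and -1.45 ± 0.21 (adjusted p = 0.000322). From 0 h to 24 h Trim54 did not rise with either siRNA, with a log2 fold change of -0.58 ± 0.21 for siSMYD3#1 (adjusted p = 0.0403) and -0.20 ± 0.21 for siSMYD3#2 (adjusted p = 0.511). The siSMYD3#1 effect at 24 h differed from its effect at 0 h by -2.15 ± 0.29 on the log2 scale (edgeR adjusted p = 0.001), and Trim54 was 1 of the 34 genes, 0.215% of those tested, that passed this test, 0.171% downward and 0.0442% upward. It was lost with all 26 libraries in 1 fit (adjusted p = 0.0258) and when extraction was not modelled (adjusted p = 0.0126). The corresponding difference for siSMYD3#2, -1.77 ± 0.29, missed the threshold (adjusted p = 0.0174), where 3 genes (0.0190%) passed.

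Trim72 at 24 h held 0.674, 1.09 and 1.49 CPM in the libraries labelled siSMYD3#1 and 1.14, 1.64 and 1.79 CPM in those labelled siSMYD3#2, against 2.01, 9.51 and 9.93 CPM in siCtrl (TRIzol first). The 6 libraries with a Smyd3 siRNA lay below all siCtrl libraries, and by a wider margin among the NucleoSpin libraries than among the TRIzol libraries. The log2 fold changes were -2.62 ± 0.42 (edgeR adjusted p = 0.000402) and -2.07 ± 0.41 (adjusted p = 0.00377). The siSMYD3#2 call was lost when any 1 of the 4 NucleoSpin libraries was left out (adjusted p from 0.0222 to 0.0304). Trim72 still rose over time with both siRNAs. It was at least 8.64-fold higher at 24 h in the libraries labelled siSMYD3#1, where the 0 h counts were 3, 2 and 1 (edgeR adjusted p = 0.00043), and its log2 fold change was 4.16 ± 0.63 in those labelled siSMYD3#2 (adjusted p = 9.04e-05).

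Asb2 at 24 h held 1.26, 2.1 and 0.708 CPM in the libraries labelled siSMYD3#1 and 1.96, 1.76 and 2.19 CPM in those labelled siSMYD3#2, against 4.64, 5.39 and 5.49 CPM in siCtrl (TRIzol first). None of these 6 libraries reached the lowest siCtrl library. The log2 fold changes were -1.87 ± 0.31 (edgeR adjusted p = 0.000442) and -1.39 ± 0.30 (adjusted p = 0.00686). Asb2 rose over time with both siRNAs, by 1.89 ± 0.38 (adjusted p = 0.000747) and 2.07 ± 0.36 (adjusted p = 3e-04) on the log2 scale. The first of these calls was lost when only the 6 libraries compared were fitted (adjusted p = 0.0189). The siSMYD3#2 call of Asb2 was lost when any 1 of the 6 libraries was left out (edgeR adjusted p from 0.011 to 0.0363), and in the NucleoSpin libraries alone (adjusted p = 0.0102).

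Trim63 had 1, 6 and 3 counts at 24 h in the libraries labelled siSMYD3#1 and 6, 1 and 1 in those labelled siSMYD3#2 (TRIzol first), at 0.0307 to 0.235 CPM, and all 6 libraries lay below the lowest siCtrl library at 0.351 CPM. It was not tested. Trim55 did not pass the threshold with either siRNA, with 6.07, 17.5 and 18.3 CPM in the libraries labelled siSMYD3#1 (log2 fold change -1.14 ± 0.35, edgeR adjusted p = 0.0493) and 10.9, 16.9 and 14.5 CPM in those labelled siSMYD3#2 (-0.92 ± 0.35, adjusted p = 0.126). In the NucleoSpin libraries alone it passed with both, with log2 fold changes of -0.95 (adjusted p = 3.84e-05) and -1.15 (adjusted p = 1.26e-05).

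Asb5 was the 1 gene of the 9 that passed the threshold upward with the siRNAs at 24 h. At 24 h it held 113, 183 and 258 CPM in the libraries labelled siSMYD3#1 and 123, 174 and 175 CPM in those labelled siSMYD3#2, against 78.2, 114 and 129 CPM in siCtrl (TRIzol first). Within each extraction method every library with a Smyd3 siRNA was above its siCtrl counterparts, while across methods the groups overlapped. The log2 fold changes were 0.76 ± 0.13 (edgeR adjusted p = 0.000586) and 0.57 ± 0.13 (adjusted p = 0.0084). The siSMYD3#2 call was lost with the replicate number as a block (adjusted p = 0.0131) and when any 1 of the 6 libraries was left out (adjusted p from 0.0186 to 0.0534). Over time, Asb5 rose in the libraries labelled siSMYD3#1 (log2 fold change 0.46 ± 0.13, edgeR adjusted p = 0.0082), a call that did not pass with the block (adjusted p = 0.0116) that was lost when only the 6 libraries compared were fitted (adjusted p = 0.0347) and that was lost without any 1 of the 3 libraries at 0 h or without 1 NucleoSpin library at 24 h (adjusted p from 0.0197 to 0.097). With siSMYD3#1, 3 of the 9 genes rose over time (Trim72, Asb2 and Asb5; 25.4% of all genes passed, 12.7% upward), and with siSMYD3#2 2 rose (Trim72 and Asb2; 19.0% passed, 9.11% upward and 9.88% downward). Asb13 did not pass with either siRNA at 24 h, with log2 fold changes of -0.12 ± 0.18 (adjusted p = 0.752) and 0.22 ± 0.18 (adjusted p = 0.509).

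Before differentiation 0 of the 9 genes passed with siSMYD3#1 and 0 with siSMYD3#2, by edgeR and by DESeq2, where 1.43% and 0.531% of the genes tested passed. At an unadjusted p under 0.05 the numbers were 1 (Trim54, log2 fold change 0.45 ± 0.21, adjusted p = 0.33) and 0. Trim72, with 8 counts or fewer per library, lay below siCtrl in all libraries of each siRNA. So did 5.76% of the genes tested with siSMYD3#1 and 3.01% with siSMYD3#2. The siRNA effects on Trim72 and Asb2 did not differ between 24 h and 0 h past the threshold. For Trim72 the edgeR adjusted p was 0.79 (siSMYD3#1) and 0.814 (siSMYD3#2), and for Asb2 0.104 and 0.134.

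At 24 h the markers of muscle differentiation went the same way as Trim54, Trim72 and Asb2 with both siRNAs, and the opposite way to Asb5. Trim55 and Asb13 did not pass. The summed level of 10 markers at 24 h ran from 674 to 1990 CPM in siCtrl, from 97 to 172 CPM in the libraries labelled siSMYD3#1 and from 279 to 342 CPM in those labelled siSMYD3#2. Of 10 cell division markers 9 fell over time in siCtrl, and at 24 h 2 were higher with siSMYD3#1 and 6 with siSMYD3#2. Whether fewer cells expressed the ligase genes or each cell held less of their RNA cannot be told apart in such bulk libraries, and the part of the differentiated share of cells in these results was not tested.

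The TRIzol and NucleoSpin libraries of a group differed for some of the 9 genes. The TRIzol libraries were also taken at another passage, so that extraction and passage cannot be told apart. Trim55 in the TRIzol library was 0.121 to 0.692 times the NucleoSpin mean over the 6 groups, and Asb13 2.26 to 2.98 times. Asb5 was 0.51 to 0.705 times and Trim54 0.874 to 1.65 times. The direction for Trim55, Asb13 and Asb5 was the same in all 6 groups, and for Trim54 it was not.

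**Figure D2:**
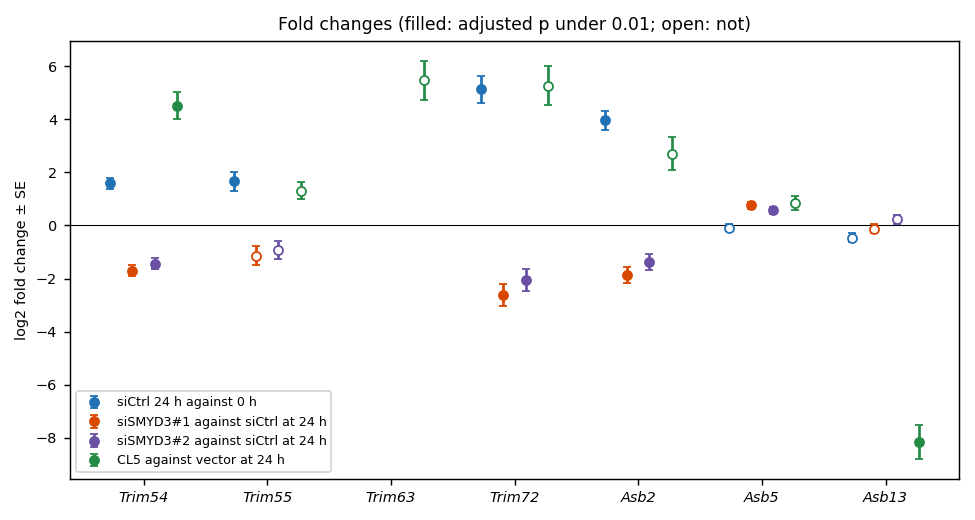
Log2 fold change with its SE for each gene tested in 4 comparisons, with filled points past the threshold. Trim54, Trim72 and Asb2 lie above 0 in differentiating siCtrl cells and below 0 with both siRNAs, and Asb13 stands lowest in CL5 (-8.16), a fitted value that rests on 1 count in CL5.

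The overexpression comparison asked the opposite question, with SMYD3 added in CL5. At 24 h, 1 of the 9 genes (Trim54) rose and 1 (Asb13) fell, where 0.964% of the 17835 genes tested passed, 0.376% higher and 0.589% lower. The same 2 genes passed in the same directions at 0 h, where 1.07% of genes passed, 0.465% higher and 0.606% lower. With DESeq2 the number of the 9 genes past the threshold was 6 at both times. At 24 h both CL5 libraries lay above both vector libraries for 6 of the 9 genes and below for 1, where 24.8% of all genes tested lay above and 26.8% below. With 2 libraries per group such a separation is therefore common.

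Trim54 held 10.9 and 16.9 CPM at 0 h and 12.5 and 14 CPM at 24 h in CL5, against 0.565 and 0.511 CPM and 0.288 and 0.844 CPM in vector cells. The vector levels lay below those of all siRNA libraries (1.9 to 6.92 CPM), so the difference between the lines also reflects low values in vector cells. Trim54 was high in CL5 already at 0 h, when the summed muscle differentiation markers ran from 167 to 931 CPM there. In vector cells it was low at both times, and the markers ran from 10.8 to 16.3 CPM at 0 h. The log2 fold changes were 4.68 ± 0.53 at 0 h (edgeR adjusted p = 0.00553) and 4.51 ± 0.52 at 24 h (adjusted p = 0.00581). At 24 h the call was lost when any 1 of the 4 libraries was left out (adjusted p from 0.0169 to 0.0413), and at 0 h when either vector library was left out (adjusted p = 0.0707 and 0.0817) or when only the 4 libraries at 0 h were fitted (adjusted p = 0.0474), while the log2 fold change stayed between 3.97 and 5.55. Over time Trim54 did not pass in vector cells (log2 fold change 0.11 ± 0.51, adjusted p = 0.994) or in CL5 (-0.07 ± 0.44, adjusted p = 0.984).

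Trim72 held 2.04 and 8.37 CPM at 0 h and 14.3 and 21.7 CPM at 24 h in CL5, against 0.0942 and 0.0487 CPM and 0.488 and 0.445 CPM in vector cells. Trim63 held 1.64 and 2.02 CPM and then 4.26 and 14.4 CPM in CL5, against 0.0314 and 0.0243 CPM and 0.111 and 0.291 CPM in vector cells. For both genes the CL5 libraries lay above the vector libraries at each time. Neither passed the threshold. At 24 h the log2 fold change was 5.27 ± 0.72 for Trim72 and 5.46 ± 0.74 for Trim63 (edgeR adjusted p = 0.0111 for each), and at 0 h, with 3 counts or fewer in each vector library, Trim72 was at least 62.3-fold higher (adjusted p = 0.0114) and Trim63 at least 21.9-fold higher (adjusted p = 0.0186). Both passed at both times with the replicate number as a block, with DESeq2 and without the filter on low counts.

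Asb2 held 2.42 and 4.25 CPM at 0 h and 4.38 and 10.4 CPM at 24 h in CL5, against 0.283 and 0.779 CPM and 1.33 and 0.936 CPM in vector cells (log2 fold change at 24 h 2.70 ± 0.62, edgeR adjusted p = 0.0675). Trim55 held 32.5 and 17.3 CPM and then 42.9 and 36.8 CPM in CL5, against 7.06 and 9.44 CPM and 17.1 and 15.1 CPM in vector cells (1.31 ± 0.33 at 24 h, adjusted p = 0.0946). Asb5 held 247 and 222 CPM in CL5 against 126 and 136 CPM in vector cells at 24 h (0.84 ± 0.28, adjusted p = 0.205). None of these 3 genes passed with edgeR, although no CL5 library overlapped a vector library at 24 h. At 0 h Asb5 overlapped between the lines, with 116 and 134 CPM in CL5 and 86.3 and 144 CPM in vector cells.

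**Figure D3:**
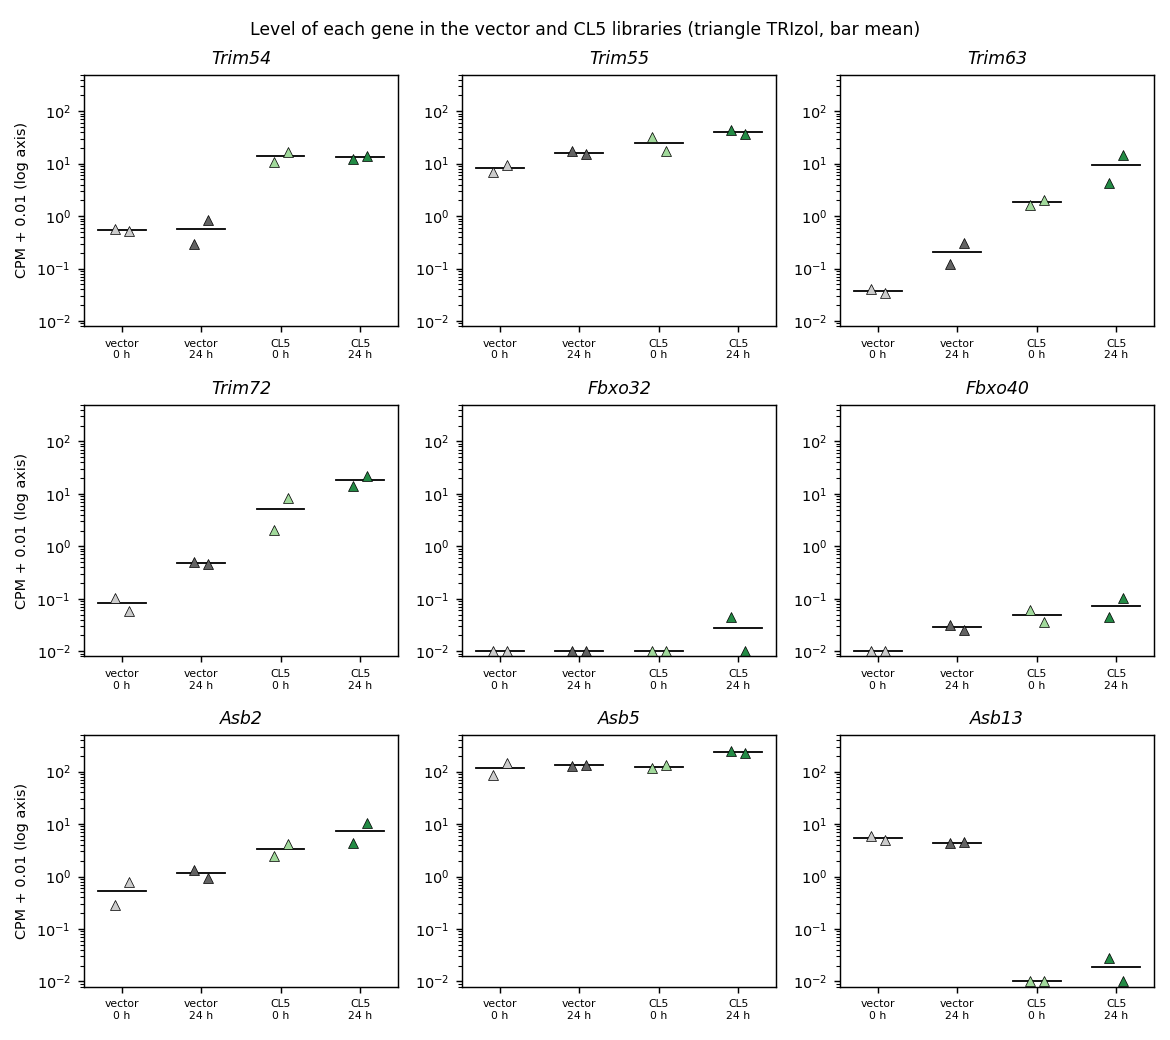
Level of each gene in each overexpression library, as CPM plus 0.01 on a log axis, with a triangle per TRIzol library and a bar for the mean of 2 libraries. Trim54 lies between 10.9 and 16.9 CPM in all 4 CL5 libraries and under 1 CPM in all vector libraries, and Asb13 is at or near 0 in CL5.

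Asb13 was nearly absent from the CL5 counts. It had 0 and 0 counts at 0 h and 1 and 0 counts at 24 h in CL5, against 190, 200, 192 and 299 counts in the vector libraries, which held 5.96, 4.87, 4.26 and 4.59 CPM. The vector levels lay within the range of the siRNA libraries (1.91 to 8.87 CPM). Asb13 was at least 71-fold lower in CL5 at 0 h (edgeR adjusted p = 0.00171) and at least 46.2-fold lower at 24 h (adjusted p = 0.0024). The call was lost when any 1 of the 4 libraries was left out at 24 h (adjusted p from 0.0218 to 0.0307) or either vector library at 0 h (adjusted p = 0.0234 and 0.0164), and when only the 4 libraries at 0 h were fitted (adjusted p = 0.0503), while the CL5 counts remained as given. Asb13 lies on chr13:3634032-3653822 (GRCm38, plus strand). Of the 6 nearest genes followed, Gdi2 and Fam208b before it and Net1, the fourth gene after it, were counted in both lines, whereas Calml3, Calm4 and Calm5 just after it had 0 to 8 counts per group in both lines. At 24 h Gdi2 held 343 ± 34.3 CPM in CL5 and 443 ± 0.298 CPM in vector cells (SD, n = 2, adjusted p = 0.548), Fam208b 60.7 ± 29.1 and 76.3 ± 6.25 CPM (adjusted p = 0.932), and Net1 98.7 ± 2.69 and 115 ± 11.4 CPM (adjusted p = 0.853). At 0 h they were lower in CL5 by more, without passing the threshold. The log2 fold changes were -0.56 ± 0.22 for Gdi2 (edgeR adjusted p = 0.234), -0.85 ± 0.75 for Fam208b (adjusted p = 0.573) and -0.63 ± 0.29 for Net1 (adjusted p = 0.304).

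Between 0 h and 24 h, 0 of the 9 genes passed in vector cells, 0 in CL5, and 0 differed in the CL5 effect between times, by edgeR and by DESeq2, with 3, 3 and 0 genes at an unadjusted p under 0.05. In these comparisons 0% of the genes tested passed. Trim63 had the lowest unadjusted p over time in CL5, with a log2 fold change of 2.34 ± 0.63 (edgeR adjusted p = 0.509). The summed muscle markers ran from 1620 to 1890 CPM in CL5 and from 56.1 to 75.6 CPM in vector cells at 24 h, and from 167 to 931 CPM and 10.8 to 16.3 CPM at 0 h. In siCtrl of the separate siRNA experiment they ran from 674 to 1990 CPM at 24 h, a range that held CL5 and lay above vector cells. Vector cells at 24 h also lay below siCtrl for Trim72, at 0.445 to 0.488 against 2.01 to 9.93 CPM. For Asb2 they held 0.936 to 1.33 against 4.64 to 5.49 CPM, and for Trim55 they overlapped siCtrl. CL5 lay above siCtrl for Trim72 and overlapped it for Asb2 and Trim55. Differences between the lines thus also reflect low vector values for Trim72 and Asb2. The part of the markers in the levels of the ligase genes was not tested.

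Fbxo32, the gene of atrogin-1, had 3 counts in total over the 26 libraries, 1 in a NucleoSpin siCtrl library at 24 h and 2 in a CL5 library at 24 h. The genes beside it on chromosome 15 were equally empty in all libraries. Fam83a, Gm29394, Zhx1, Wdyhv1 and Klhl38 were listed at 0 in 26 of 26 libraries, and 9130401M01Rik and Atad2 had 1 count each in total. Zhx1, a zinc finger homeobox factor, and Atad2, a chromatin ATPase of dividing cells, are known to be broadly expressed. On one side the run ended at Tbc1d31, with 672 to 4417 counts per library, and on the other it passed through Fam91a1 (0 to 11 counts) and Fer1l6 (7 to 86 counts) to Tmem65 (1734 to 8957 counts). The run from Fam83a to Klhl38 spans chr15:57985419-58324169 (GRCm38). The cause of the run of zeros was not tested, and no fold is given for Fbxo32.

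**Figure D4:**
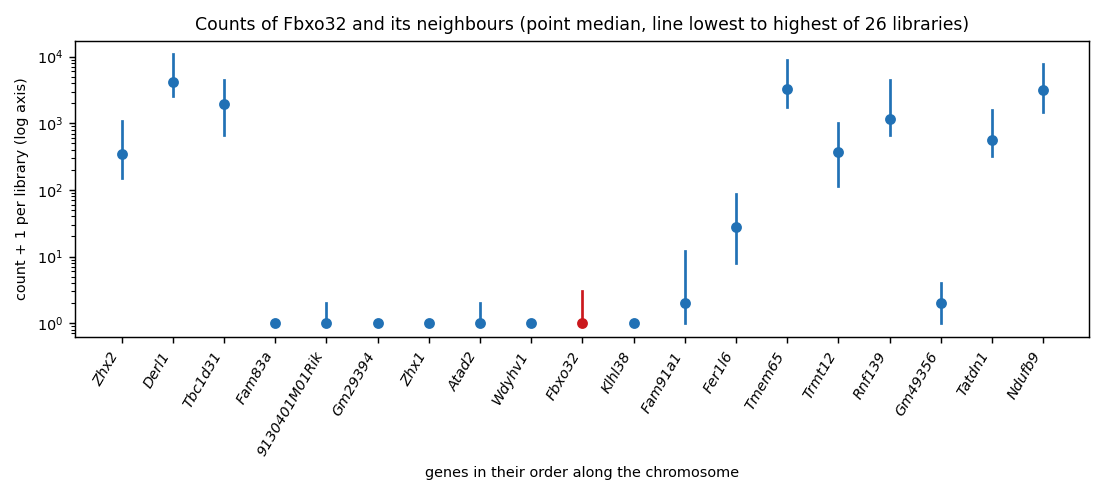
Counts of Fbxo32 (red) and the protein-coding genes on either side in chromosomal order, as count plus 1 on a log axis, with the median as a point and the lowest to highest of 26 libraries as a line. The 8 genes from Fam83a to Klhl38 reach at most 2 counts in any library, whereas Tbc1d31 before them holds 672 to 4417 counts.

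Fbxo40, a muscle F-box gene whose product directs IRS1 to degradation, was also near 0, with at most 4 counts in any library. Its highest counts, 4 and 4, were in the TRIzol libraries of both Smyd3 siRNAs at 24 h. No fold is given. Its substrate gene Irs1 rose in differentiating siCtrl cells (log2 fold change 1.23 ± 0.17, edgeR adjusted p = 2.64e-05) and did not pass at 24 h with siSMYD3#1 (-0.05 ± 0.17, adjusted p = 0.909) or siSMYD3#2 (-0.56 ± 0.17, adjusted p = 0.0496).

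Over the 18 siRNA libraries the closest patterns differed between the genes. By Pearson's r of log2 CPM, searched over 10816 genes with a mean count of at least 100, Trim72 was most like Srl (0.972), Klhl41 (0.968) and Casq2 (0.963), genes of the sarcoplasmic reticulum and the sarcomere. Asb2 was most like Ckm (0.969), Ryr1 (0.966) and Iffo1 (0.966), and Trim55 most like Synpo2l (0.978), Sytl2 (0.978) and Actn3 (0.973). Trim54 had no equally close match, with Mylk2 (0.863), Arl6ip5 (0.787) and Tnnt2 (0.785). Asb5 was most like Calu (0.963), Scpep1 (0.952) and Pdxdc1 (0.948), and Asb13 most like Taf2 (0.959), Taf1c (0.957) and Dido1 (0.957). Among the genes themselves Trim72 and Asb2 were the closest pair (r = 0.92), and Asb13 ran opposite to Trim55 (r = -0.79) and Asb5 (r = -0.787). These libraries share treatments, times and the 2 extraction methods, and no p is attached.

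The other genes of the ubiquitin system were followed by list, and the counts over time in siCtrl stand beside 14.6% of all genes rising and 14.8% falling. In siCtrl from 0 h to 24 h, 20 of the 40 ubiquitin and proteasome genes fell and 3 rose, and their median log2 fold change was -0.36, compared with 0.03 for all genes. Psma1, a subunit of the proteasome core, fell by 0.63 on the log2 scale (SE 0.09, edgeR adjusted p = 1.73e-05), and Psme3, an activator, by 0.62 (SE 0.09, adjusted p = 3.33e-05). At 24 h, 0 of the 40 passed with either siRNA by edgeR.

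Of 17 cullin-RING core genes, 1 rose and 2 fell in siCtrl over time. Cand2, an exchange factor of cullin ligases found in muscle, was the one that rose (log2 fold change 1.67 ± 0.14, edgeR adjusted p = 5.02e-08) and the only one of the 17 that fell at 24 h with siSMYD3#1 (-0.97 ± 0.14, adjusted p = 9.84e-05) and with siSMYD3#2 (-0.78 ± 0.14, adjusted p = 0.0013). Of 10 cullin 3 adaptors 9 were tested, with 3 up and 1 down over time. Klhl41, an adaptor of the sarcomere, went from 1.08 ± 0.202 to 40.6 ± 17.1 CPM (SD, n = 3; log2 fold change 5.18 ± 0.30, adjusted p = 1.61e-09), fell with siSMYD3#1 (-3.04 ± 0.27, adjusted p = 1.65e-06) and siSMYD3#2 (-2.07 ± 0.25, adjusted p = 0.000119), and rose in CL5 at 24 h (4.50 ± 0.32, adjusted p = 0.00103).

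Over time in siCtrl 29.4% of all genes passed, the share against which the next counts stand. Of the 15 other ASB genes 6 were tested in the siRNA experiment, and 0 passed over time in siCtrl, where Asb2 rose. Asb1 fell at 24 h with siSMYD3#1 (log2 fold change -0.60 ± 0.11, edgeR adjusted p = 0.000786), and 0 of the 6 passed with siSMYD3#2. Of the 10 other F-box genes 9 were tested and 2 rose over time in siCtrl, among them Fbxo25 (0.54 ± 0.10, adjusted p = 0.000178), a relative of Fbxo32. Of 25 other ubiquitin ligases 24 were tested, with 1 up and 4 down. Nedd4, a HECT ligase, rose by 0.31 ± 0.08 (adjusted p = 0.00405), and Mdm2, the ligase of p53, fell by 0.39 (SE 0.09, adjusted p = 0.00141). Of 18 E1 and E2 enzymes 1 rose and 3 fell, among them Cdc34, the E2 of cullin 1 ligases, which fell by 0.65 (SE 0.10, adjusted p = 5.59e-05). Of 10 deubiquitinases and receptors 2 rose and 3 fell, with Uchl3 falling by 1.07 (SE 0.12, adjusted p = 1.29e-06) and Nbr1, an autophagy receptor that binds MuRF2, rising by 0.76 ± 0.08 (adjusted p = 4.35e-07).

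**Figure D5:**
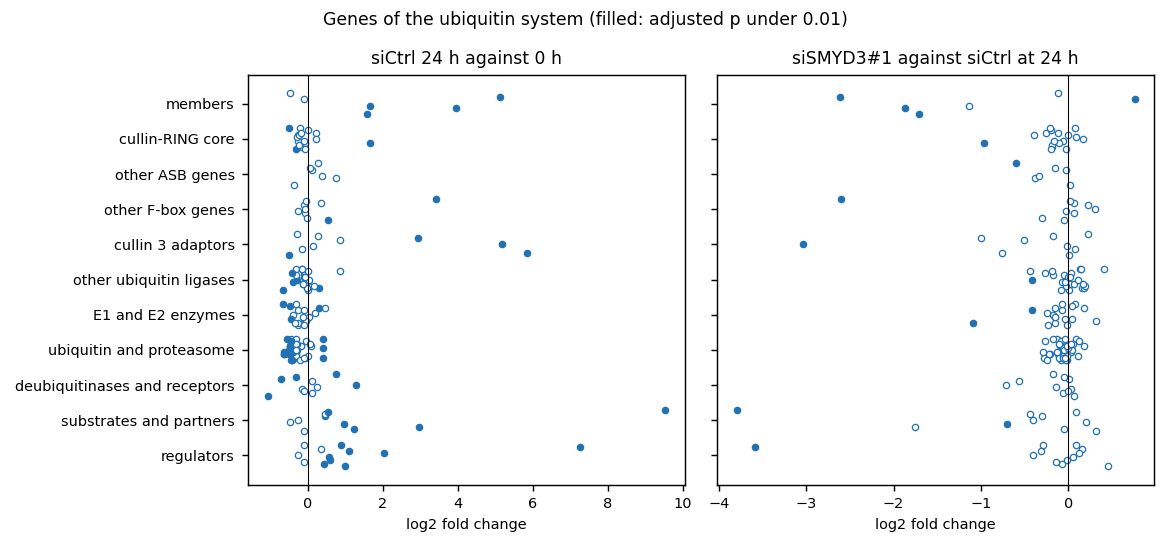
Log2 fold change of each tested gene of the ubiquitin system, by list, in siCtrl over time and at 24 h with siSMYD3#1, with filled points past the threshold. The 40 ubiquitin and proteasome genes sit mostly just below 0 over time, and the cullin 3 adaptor Klhl41 lies at 5.18 over time and at -3.04 with siSMYD3#1.

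Substrates, partners and regulators were followed by the same lists. Of 11 substrates and partners 10 were tested, and 6 rose over time in siCtrl. Ckm, the muscle creatine kinase bound by MuRF1, went from 0.0415 ± 0.0376 to 36.2 ± 15.5 CPM (SD, n = 3) and fell with siSMYD3#1 (log2 fold change -3.80 ± 0.25, edgeR adjusted p = 7.05e-08) and siSMYD3#2 (-2.26 ± 0.23, adjusted p = 2.48e-05). Dysf, the membrane repair partner of MG53, rose over time (0.97 ± 0.15, adjusted p = 4.21e-05) and fell with siSMYD3#1 (-0.70 ± 0.15, adjusted p = 0.00421), but did not pass with siSMYD3#2 (-0.38 ± 0.15, adjusted p = 0.127). Snai2, a transcription factor that ASB13 targets, rose over time by 0.54 ± 0.12 (adjusted p = 0.00147).

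Of 15 regulators 12 were tested, and 8 rose over time in siCtrl. Foxo4 (log2 fold change 1.11 ± 0.09, edgeR adjusted p = 2.41e-08) and Foxo3 (0.60 ± 0.13, adjusted p = 0.00145), forkhead factors of atrophy genes, were among them, and Foxo1 did not pass (-0.09 ± 0.12, adjusted p = 0.554). Myog, the gene of myogenin and an activator of Trim63 and Fbxo32 in denervated muscle, rose by 7.25 ± 0.38 (adjusted p = 8.45e-09). At 24 h Myog fell with siSMYD3#1 (-3.59 ± 0.30, adjusted p = 5.4e-06) and with siSMYD3#2 (-1.81 ± 0.28, adjusted p = 0.00125). Foxo4 fell with siSMYD3#2 (-0.38 ± 0.09, adjusted p = 0.0086) and missed the threshold with siSMYD3#1 (-0.32 ± 0.09, adjusted p = 0.0194), and the siRNAs did not differ for it by the test (0.06, adjusted p = 0.74). In CL5 at 24 h 0 of the 13 regulators tested and 0 of the 11 substrates and partners passed with edgeR, where 0.964% of all genes passed. Of the 9 muscle differentiation markers tested 0 passed as well, with a median log2 fold change of 4.58. A count of 0 in this comparison therefore does not show that a list was unchanged. Myog had a log2 fold change of 3.82 ± 0.73 (edgeR adjusted p = 0.0376) and missed the threshold. The study reported myogenin as significantly elevated in its overexpressing cells. Of the 10 substrates and partners tested, 1 differed between the siRNAs at 24 h, Ckm, which was lower with siSMYD3#1 (-1.54 ± 0.25, adjusted p = 0.000953).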

How the data were processed

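Poly-A RNA of C2C12 cells was sequenced in paired ends from stranded libraries by the authors, who aligned reads to GRCm38 with HISAT2 2.1.0 and deposited raw read counts per gene made with featureCounts of Subread 1.6.3, 1 file per library. The strand setting of the counting is not given in the sources used here. Each file listed 55341 genes, of which 54495 were named from GENCODE M21. No 2 of the 26 libraries held identical values.

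From these counts, the edgeR 4.0.16 quasi-likelihood test (R 4.3.3, filterByExpr, TMM, robust) was fitted separately to the 18 siRNA libraries (6 groups plus extraction method) and the 8 overexpression libraries (4 groups). P-values were adjusted by Benjamini-Hochberg over all genes tested, with a threshold of 0.01. SE was taken as the log2 fold change over the square root of F. Levels are CPM on TMM library sizes. Where every library of a group had 3 counts or fewer, only a bound on the fold is given, with 3 counts per library as the floor. The groups' libraries are separate samples by their labels, but nothing in the labels states separate cultures for the overexpression lines, so p-values measure the spread between these samples. Counting error only is covered by the floors.

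Replicate numbers of the siRNA libraries came from the study's library table. Deviations from the group means of same-numbered libraries correlated in every pair (lowest pair per comparison 0.455 to 0.729). The TRIzol library carried the same number in every group, so this check could not tell pairing from extraction. Within the NucleoSpin libraries alone the correlation ran from -0.089 to 0.337. The fit with the replicate number as a block was an alternative, as were DESeq2 1.42.0, other size factors, no filter, all 26 libraries in 1 fit, no extraction term, NucleoSpin libraries only, a threshold of 0.05, only the groups compared, and leaving out each library. On simulated counts with 200 changed genes, edgeR recovered 92.5% at a log2 fold change of 1.5 in the comparison of siSMYD3#1 with siCtrl at 24 h (15390 genes), and 86.5% at 3 in that of CL5 with vector at 24 h (17371 genes). Changed genes were drawn only from those with a mean above 1 CPM, and no extraction or time effect was simulated. The recovered shares therefore do not carry over to genes with few counts.

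The 9 genes and the gene lists were chosen with earlier results of these data known. Of each other list at most 4 genes could be named, those with the largest change past the threshold among genes with a mean count of at least 100, and any gene of the substrates and regulators. The neighbours of Fbxo32 and Asb13 were chosen after the values of those 2 genes were seen. Dpt was also named after its values were seen.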

Additional observations from a re-analysis of the deposited data

Results flagged for a closer look

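Trim54 was marked because the effect of siSMYD3#1 differed between the times by the interaction test. The siSMYD3#1 effect at 24 h minus that at 0 h was -2.153 on the log2 scale (SE 0.29, edgeR adjusted p = 0.001), from a log2 fold change of 0.45 at 0 h to -1.71 at 24 h. It passed when any 1 of the 12 libraries was left out, with values from -2.33 to -1.86. It missed the threshold when all 26 libraries were fitted in 1 model (adjusted p = 0.0258) and when the extraction method was not modelled (adjusted p = 0.0126). Groups here hold 2 or 3 libraries, too few to test single libraries as outliers.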

How the results depend on the processing

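Counts are of the 9 genes past the threshold. No direction of a called gene turned under any alternative. Over all alternatives, 182 counts stayed within 1.5 times the value reported and 39 did not, and of the values of single genes 1264 kept their side of the threshold, 62 came to pass it and 55 were lost. Without the filter on low counts, the count went from 3 to 5 for siSMYD3#1 over time, from 0 to 1 for the siSMYD3#2 effect (24 h minus 0 h), from 2 to 6 for CL5 at 24 h and at 0 h, from 0 to 1 for vector cells over time and from 0 to 2 for CL5 over time. At a threshold of 0.05 these were 5 for siSMYD3#1 over time, 1 for the siSMYD3#2 effect, 4 for CL5 at 24 h and 5 at 0 h. With DESeq2 the siSMYD3#2 effect had 1, and CL5 had 6 at each time. With all 26 libraries in 1 fit, siSMYD3#2 at 24 h went from 4 to 1, the siSMYD3#1 effect from 1 to 0, and CL5 to 6 at each time. Without the extraction method in the model, siSMYD3#1 and siSMYD3#2 at 24 h went from 4 to 1 each, and the siSMYD3#1 effect to 0. In the NucleoSpin libraries only, the siSMYD3#2 effect had 1. With only the groups compared, CL5 at 0 h had 0. The cause was not tested.

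When 1 library was left out, counts ran from 1 to 2 for siSMYD3#2 at 24 h, from 0 to 1 for the siSMYD3#2 effect, from 0 to 0 for CL5 at 24 h, from 0 to 5 for CL5 at 0 h, from 2 to 4 for siSMYD3#1 over time and from 4 to 5 for siCtrl over time. Where this left 1 library in a group, it was assumed to vary like the other groups.

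With the replicate block, CL5 had 4 at 24 h and 4 at 0 h, Trim63 and Trim72 coming to pass (adjusted p = 0.00301 and 0.00505 at 24 h). Same-numbered libraries of CL5 and vector cells correlated at -0.051 at 24 h and 0.147 at 0 h. Over time the correlation was 0.006 in vector cells and 0.549 in CL5. Same-numbered libraries thus went together over time in CL5 only, and whether the numbers pair samples was not settled. Apart from these and the Asb5 values given in the report, the block changed no call.

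Among all genes, calls went from 172 to 880 with DESeq2, 1032 without the filter and 1334 with all 26 libraries for CL5 at 24 h, and from 191 to 1041, 1246 and 1995 at 0 h. Without the extraction method they went from 926 to 102 for siSMYD3#1 and from 586 to 18 for siSMYD3#2 at 24 h, and from 4655 to 1676 for siCtrl over time. Trim63, Fbxo32 and Fbxo40 had too few counts to be tested in the siRNA libraries, and the cause was not tested.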
